A study of Homo sapiens with 3 samples.

Results

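The genes described here are the protein-coding histone genes of the replication clusters, which supply most of the histone protein that packs new DNA. They were taken as the rows of the deposited expression table whose Ensembl identifier belongs to a protein-coding gene with a GENCODE release 29 symbol beginning with HIST1H, HIST2H, HIST3H or HIST4H. The rule found 71 of the 60504 rows, with 6 genes of class H1, 17 of H2A, 18 of H2B, 15 of H3 and 15 of H4. The HIST1 cluster on chromosome 6 holds 55 of them, the HIST2 and HIST3 clusters on chromosome 1 hold 12 and 3, and HIST4H4 stands alone on chromosome 12. RNA-Seq had been performed on DLD1, an established colorectal cancer cell line. There was 1 library of DLD1 cells labelled wild type, here called the DLD1 control, and 1 library of each of 2 BEX2-/- DLD1 clones, made by CRISPR/Cas9 editing and here called clone 1 and clone 2. Each clone is a line selected after editing, so a difference of 1 clone from the control cannot be told apart from a difference between any 2 lines of these cells. In bulk libraries, fewer cells that express a gene and less RNA per cell cannot be told apart either. Both clones were set against the same control library, which has no replicate, and no p-value was computed.

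Histones H2A, H2B, H3 and H4 form the core of the nucleosome, and H1 binds the DNA that links nucleosomes. The clustered genes have no introns in their classical transcripts and are transcribed mainly in S phase. The mRNA normally ends a few bases past a stem-loop that is bound by SLBP, and it carries no poly(A) tail. Some of these genes also give polyadenylated transcripts, which run past the stem-loop to a poly(A) signal and are known from differentiated cells. The library kit selects RNA with a poly(A) tail, so the values below describe the RNA of these genes that this selection retained, and the total level of histone mRNA was not measured.

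In the libraries, 10 of the 71 genes had a mean of at least 1 FPKM (fragments per kilobase of exon, scaled to library size). The linker histone gene HIST1H1C and the H2B gene HIST1H2BK were far above the others. Of these 10 genes, 9 were higher than the DLD1 control by any amount in both clones. The share of all genes past the same filter was 32.4%. None was lower in both clones, compared with 27.7%. HIST2H2BE, at 0.531 FPKM in the control, passed the filter only through the clones, so their mean had to be higher. Of the 9 genes with at least 1 FPKM in the control, a filter chosen after the values were seen, 8 were higher in both clones, compared with 30.9% of the genes past it. Over the 10 genes the median log2 ratio of FPKM + 1 was 0.49 in clone 1 and 0.32 in clone 2. Over the 9 genes it was 0.49 and 0.26. Over all genes past the filter used for the 10 it was 0.037 and -0.013. By the criterion of a 2-fold difference on that scale, 0 of the 10 genes were called in clone 1, in clone 2 or between the clones, where 2.02%, 2.06% and 4.19% of all genes were. The same held for a 2-fold difference in the same direction in both clones, which 0.325% of all genes showed. Of the DNA replication and other S phase genes, 34 of 41 were lower in both clones, compared with 27.7% of all genes.

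The depths recovered from the FPKM values were 47458851 reads in the DLD1 control, 35593989 in clone 1 and 47722374 in clone 2. For a gene with 400 nt of exons, 1 read is 0.0527 FPKM in the control, 0.0702 in clone 1 and 0.0524 in clone 2. The values of 69 of the 71 genes were whole reads in every library. Of these, 23 were 0 throughout and so whole in any case. A count of 0 allows up to 3 reads, or 0.158, 0.211 and 0.157 FPKM at 400 nt. BEX2 was listed at 0 in all 3 libraries, the control included, so its mRNA gave no check of the labels. KRT8, a keratin of simple epithelia and the highest of 10 colorectal epithelium markers, was at 538, 510 and 611 FPKM in the control, clone 1 and clone 2, and 9 of the 10 markers passed the filter. The actin-bundling protein gene VIL1 was the only 1 of them to differ 2-fold from the control, at 3.61, 13.2 and 0.221 FPKM. None of 10 markers of blood cells, fibroblasts and endothelium passed it, 3 were listed at 0 throughout, and their summed level was 0.239, 0.110 and 0.249 FPKM.

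The stem-loop is the sequence that sets these mRNAs apart, and it was searched for downstream of the stop codon in the annotated transcripts (GENCODE release 29, GRCh38). It was found in 32 genes, beginning 22 to 67 bases past the stop codon. In the other 39 it was not found, among them the 35 whose annotated exons hold coding sequence only. The 4 commonest forms follow, with the loop in capitals. In these forms, the H4 genes with a stem-loop found share a stem that differs from that of H2A, H2B and H3. The search used a fixed pattern, so other stems could have been missed, and nothing is shown for the genes without a match.
17 genes of H2A, H2B and H3, including HIST1H2AC, HIST2H2BE and HIST1H3H: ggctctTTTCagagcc
5 genes of H2B and H3, including HIST1H2BC and HIST1H2BD: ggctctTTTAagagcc
5 genes of H4, including HIST1H4H and HIST4H4: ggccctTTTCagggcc
3 genes of H4, HIST1H4I, HIST2H4A and HIST2H4B: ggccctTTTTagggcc
HIST1H3E and HIST1H2AG each had a form of their own. In HIST1H4I the stem-loop lies at chr6:27139654-27139669, 33 bases past the stop codon, and the annotated exon runs on for a further 212 nt. In HIST2H2BE it lies 56 bases past the stop codon, and the annotated exon runs on for 1729 nt.

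The promoters are shown for the 2 highest genes, for HIST2H2BE, which had the largest fold in a clone among the 10, and for the highest H4 gene. The sequences are the 250 bases before the RefSeq start (GRCh38.p14), read in the direction of the gene. The capitals mark CCAAT (bound by NF-Y), TATAAA (the TATA box), ATTTGCAT (the octamer, bound by POU2F1) and AAACACA (the H1 box) on either strand, and overlapping matches run together.
HIST1H1C, chr6:26056471-26056720, minus strand: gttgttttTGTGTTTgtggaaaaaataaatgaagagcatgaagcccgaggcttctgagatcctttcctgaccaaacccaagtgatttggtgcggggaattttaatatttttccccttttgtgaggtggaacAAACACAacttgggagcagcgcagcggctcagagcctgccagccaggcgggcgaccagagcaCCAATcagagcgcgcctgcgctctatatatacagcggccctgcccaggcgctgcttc
HIST1H2BK, chr6:27146859-27147108, minus strand: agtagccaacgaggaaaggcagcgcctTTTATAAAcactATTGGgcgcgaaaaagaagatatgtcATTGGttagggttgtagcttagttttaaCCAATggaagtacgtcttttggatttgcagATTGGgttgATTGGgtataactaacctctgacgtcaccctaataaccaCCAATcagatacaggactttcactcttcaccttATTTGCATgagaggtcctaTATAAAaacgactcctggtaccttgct
HIST2H2BE, chr1:149886683-149886932, minus strand: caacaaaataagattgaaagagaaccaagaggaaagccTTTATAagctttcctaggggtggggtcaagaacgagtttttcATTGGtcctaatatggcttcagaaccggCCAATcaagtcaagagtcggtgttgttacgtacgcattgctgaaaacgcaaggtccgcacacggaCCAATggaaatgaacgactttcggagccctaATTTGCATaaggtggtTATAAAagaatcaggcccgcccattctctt
HIST1H4I, chr6:27139032-27139281, plus strand: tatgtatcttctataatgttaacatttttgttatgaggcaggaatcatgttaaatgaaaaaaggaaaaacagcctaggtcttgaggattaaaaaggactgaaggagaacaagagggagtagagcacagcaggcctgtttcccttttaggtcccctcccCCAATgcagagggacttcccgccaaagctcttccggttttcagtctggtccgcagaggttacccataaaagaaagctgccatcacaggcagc
The promoters of HIST1H2BK and HIST2H2BE both had the octamer 46 bases before the start and a TATAAA after it, at 27 and 30 bases. HIST1H1C had a CCAAT at 57 bases before the start and an AAACACA at 119 bases, with another on the opposite strand at 242 bases. In HIST1H4I the only match was a CCAAT at 92 bases. This window lies inside the GENCODE exon of HIST1H4I, chr6:27138588-27139881, so the 2 annotations place the start differently.

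RefSeq promoters were matched for 66 of the 71 genes. The motifs followed histone class. CCAAT stood in every matched promoter of H1, H2A, H2B and H3 and in 3 of 13 of H4, and in 34.6% of all 35116 RefSeq promoters. ATTTGCAT was in 11 of 16 promoters of H2A and 14 of 18 of H2B, in 1 of 13 of H3 and in none of H1 or H4, against 1.77% of all promoters. AAACACA was in 6 of 6 promoters of H1 and in 3 others, against 5.64%. TATAAA was in 44 of the 66, against 11.5%. The motifs did not set apart the genes with the higher levels. Of the 22 matched genes listed at 0 in all libraries, 20 had CCAAT, 14 TATAAA and 11 ATTTGCAT, and of the 10 genes past the filter these numbers were 10, 7 and 5.

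**Figure D1:**
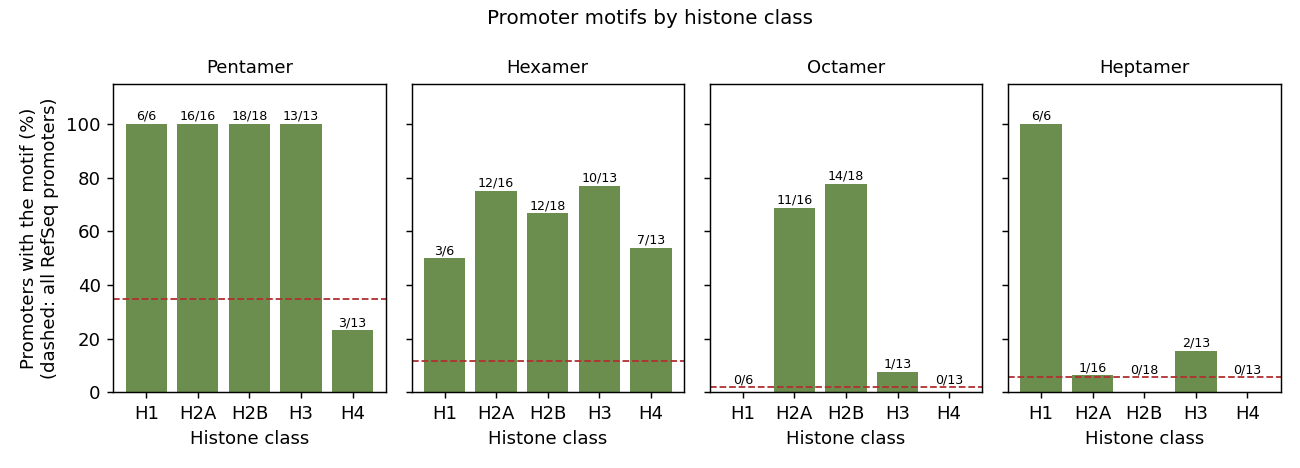
Share of matched promoters (vertical axis, percent) of each histone class (horizontal axis) that hold the pentamer CCAAT, the hexamer TATAAA, the octamer ATTTGCAT or the heptamer AAACACA on either strand, with the counts above the bars and the share of all RefSeq promoters as a dashed line. The pentamer is in all promoters but those of H4, where it is in 3 of 13, the octamer is mostly in H2A and H2B, and the heptamer is in all 6 promoters of H1.

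Most of the genes were listed at or near 0. In all 3 libraries 23 of the 71 genes, or 32.4%, were at 0, compared with 20.2% of 19664 protein-coding genes. The 10 genes past the filter were 14.1% of the 71, where 51.1% of protein-coding genes passed. Another 38 were above 0 in a library with a mean below 1 FPKM. The summed level of the 71 genes was 128.8 FPKM in the DLD1 control, 174.7 in clone 1 and 148.6 in clone 2, between 0.0470% and 0.0665% of each library's total. HIST1H2BK alone held 56.4%, 51.4% and 50.4% of these sums, and the 10 genes together held 94.2%, 93.4% and 94.7%.

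**Figure D2:**
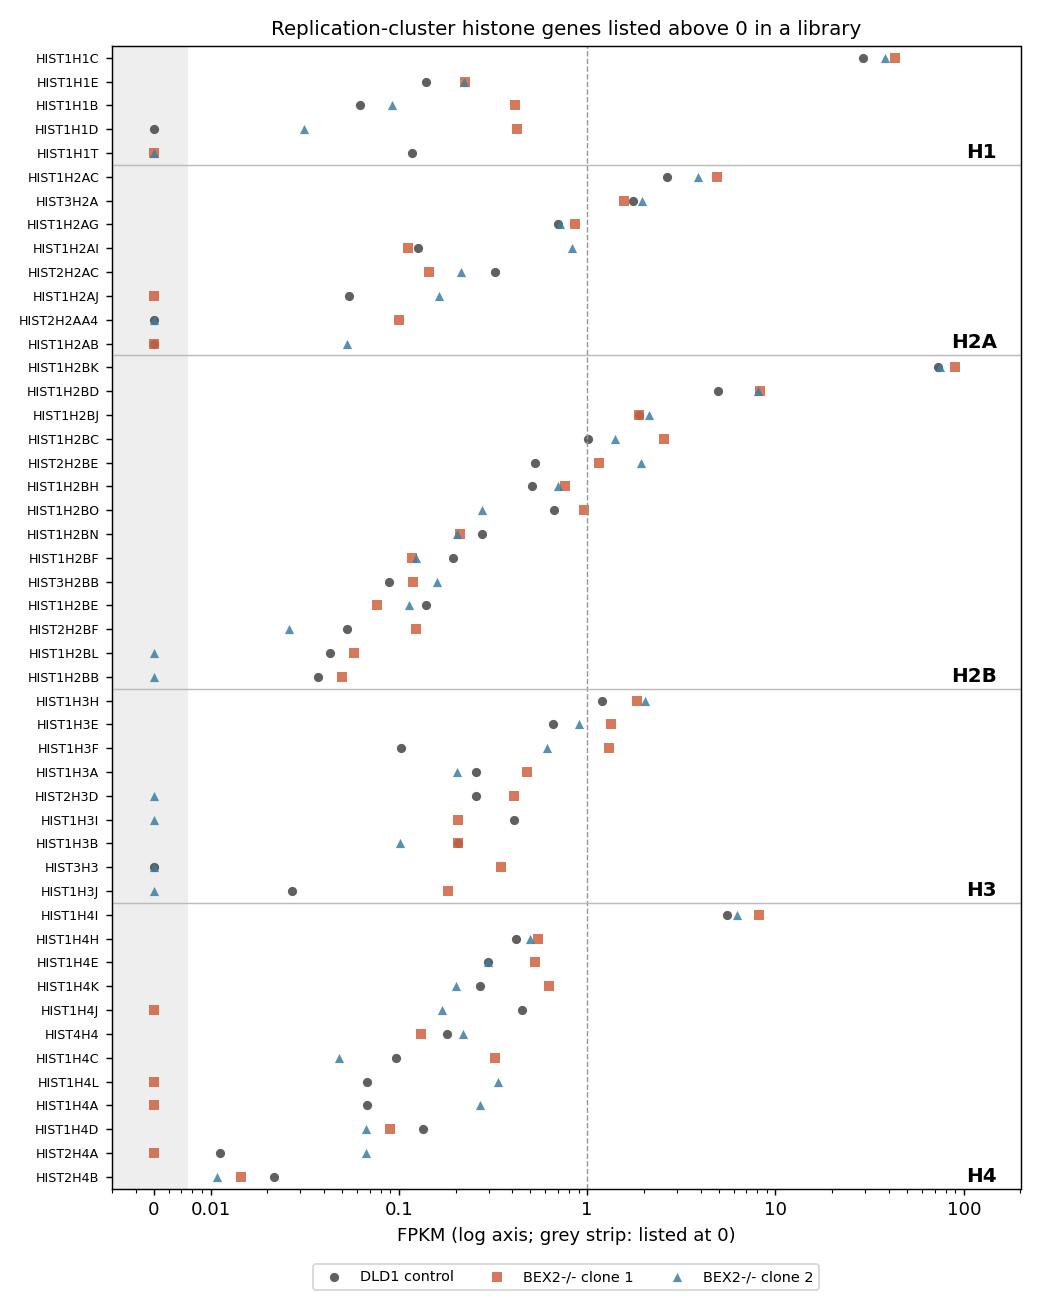
FPKM (horizontal log axis) of the 48 histone genes listed above 0 in a library, in the DLD1 control (circles), clone 1 (squares) and clone 2 (triangles), ordered by class and level, with values of 0 in the grey strip and 1 FPKM as a dashed line. HIST1H2BK and HIST1H1C stand above 29 FPKM in every library, and most of the other genes lie left of the dashed line in all 3.

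The genes were also divided by their annotated 3′ end. A transcript that ends within 30 nt of an AATAAA or ATTAAA, the usual poly(A) signals, was annotated for 23 genes, of which 7 passed the filter, and the median over these genes of the mean FPKM of the 3 libraries was 0.374. For the other 48 genes, of which 3 passed, this median was 0.0709 FPKM. The summed level went the other way, since the 2 highest genes belong to the second set, which held 86.4% of the sum in the control, 84.7% in clone 1 and 83.1% in clone 2. HIST1H1C and HIST1H2BK are among the 35 genes whose annotated exons are coding sequence only, of which 16 were listed at 0 throughout. Reads from any untranslated part of these 35 genes fall outside the exons used here, and whether their transcripts had other ends was not tested.

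HIST1H1C encodes H1.2, a linker histone of most somatic cells. It was at 29.3 FPKM in the DLD1 control, 43.0 in clone 1 and 38.2 in clone 2, from 892, 983 and 1170 reads. Both clones were above the control, and they differed from each other by less than from the control. The fold was 1.47 in clone 1, with an exact 95% interval of 1.34 to 1.61, and 1.30 in clone 2, with an interval of 1.19 to 1.42. Here and below such intervals come from the reads of 2 libraries and cover counting error only. No 50-mer of HIST1H1C is shared with another annotated gene. The other linker histone genes were near the limit of detection. HIST1H1E, which encodes H1.4, had 5 reads in the control, 6 in clone 1 and 8 in clone 2, or 0.140, 0.224 and 0.222 FPKM. HIST1H1B, which encodes H1.5, had 2, 10 and 3 reads, and its ratio of clone 1 to the control was 6.67 with an interval of 1.42 to 62.6. HIST1H1D, which encodes H1.3, had 0, 10 and 1 reads, and the interval of the ratio of clone 1 to the control begins at 2.99. HIST1H1T, the testis form, had 4 reads in the control and 0 in each clone, and HIST1H1A was listed at 0.

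The highest H2A gene was HIST1H2AC, at 2.67 FPKM in the DLD1 control, 4.92 in clone 1 and 3.89 in clone 2 (211, 292 and 310 reads). Both clones lay above the control, by 1.85-fold with an interval of 1.54 to 2.21 in clone 1 and by 1.46-fold with an interval of 1.223 to 1.75 in clone 2. HIST3H2A, of the small cluster on chromosome 1, was at 1.74, 1.57 and 1.97 FPKM. Its intervals of 0.616 to 1.31 in clone 1 and 0.816 to 1.56 in clone 2 both include 1. It was the only gene of the 10 that was lower than the control in a clone. HIST1H2AG was below the filter at 0.702, 0.862 and 0.717 FPKM (75, 69 and 77 reads), and both of its intervals include 1 as well. HIST1H2AI had 3, 2 and 20 reads, and 62.3% of its 50-mers occur in other genes. The other H2A genes had 6 reads or fewer in each library, and 9 of the 17 were listed at 0 throughout.

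HIST1H2BK encodes an H2B found in many tissues and was the highest of all 71 genes, at 72.6 FPKM in the DLD1 control, 89.8 in clone 1 and 74.9 in clone 2 (1313, 1218 and 1361 reads). Clone 1 was above the control by 1.24-fold with an interval of 1.14 to 1.34. Clone 2 was within counting error of the control, at 1.03-fold with an interval of 0.955 to 1.11. Its annotated exon shares 74.1% of its 50-mers with other genes, among them H2BFS, a closely similar H2B gene on another chromosome. H2BFS was listed at 0.229, 0 and 0.592 FPKM, and how reads that match both were counted is not given in the sources used here. HIST1H2BD was at 4.94, 8.26 and 8.11 FPKM (204, 256 and 337 reads). The clones were nearly equal and both were above the control, by 1.67-fold with an interval of 1.39 to 2.02 and by 1.64-fold with an interval of 1.38 to 1.97. HIST1H2BJ was at 1.89, 1.89 and 2.12 FPKM, where no difference was detectable at this depth, with intervals of 0.714 to 1.41 and 0.830 to 1.52.

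HIST1H2BC and HIST2H2BE, picked out after their values were seen, had the largest folds of the 10. HIST1H2BC was at 1.01 FPKM in the DLD1 control, 2.56 in clone 1 and 1.41 in clone 2 (40, 76 and 56 reads). It was 2.53-fold higher in clone 1, with an interval of 1.71 to 3.81, and 1.39-fold higher in clone 2, with an interval of 0.911 to 2.14 that includes 1. HIST2H2BE was at 0.531, 1.16 and 1.94 FPKM. It is 1 of the 2 genes whose values are not whole reads at the annotated exon length of 2194 nt, and an exon length of 2260 nt gives 57, 93 and 209 reads. The folds were 2.18 in clone 1, with an interval of 1.55 to 3.08, and 3.65 in clone 2, with an interval of 2.71 to 4.98. Clone 2 was also above clone 1, by 1.68-fold with an interval of 1.31 to 2.16. HIST2H2BE is known for a long polyadenylated transcript and for high levels in cells that have left the cell cycle. With no pseudocount and the same filter, HIST1H2BC and HIST2H2BE were the 2 of 10 genes at least 2-fold higher in clone 1, against 2.15% of all genes, and HIST2H2BE was the 1 of 10 in clone 2 and in both, against 2.73% and 0.437%. Since HIST2H2BE passed the filter through the clones, nothing is read from these counts, and of the 9 genes with at least 1 FPKM in the control only HIST1H2BC reached 2-fold, in clone 1.

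HIST1H3H was the highest H3 gene, at 1.19 FPKM in the DLD1 control, 1.84 in clone 1 and 2.02 in clone 2 (70, 81 and 119 reads). It was above the control in both clones, 1.54-fold with an interval of 1.11 to 2.16 and 1.69-fold with an interval of 1.25 to 2.30. HIST1H3E was at 0.661, 1.33 and 0.907 FPKM (84, 127 and 116 reads), just under the filter. Its folds were 2.02, with an interval of 1.52 to 2.69, and 1.37, with an interval of 1.03 to 1.84. HIST1H3F had 2 reads in the control, 19 in clone 1 and 12 in clone 2, or 0.103, 1.30 and 0.612 FPKM. Its ratios were 12.7 with an interval of 3.06 to 112.1, and 5.97 with an interval of 1.33 to 54.9. These 3 genes belong to the 10 H3 genes of the HIST1 cluster that encode the same protein, H3.1.

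HIST1H4I was the highest H4 gene, at 5.50 FPKM in the DLD1 control, 8.16 in clone 1 and 6.22 in clone 2 (338, 376 and 384 reads). Its fold was 1.48 in clone 1, with an interval of 1.28 to 1.72, and 1.13 in clone 2, with an interval of 0.974 to 1.31 that includes 1. HIST1H4H was at 0.419, 0.546 and 0.494 FPKM (43, 42 and 51 reads), and HIST1H4E at 0.298, 0.529 and 0.296 FPKM (21, 28 and 21 reads). The intervals of both genes include 1 in each clone. By the annotation, 14 of the 15 H4 genes encode the same protein, and HIST1H4G is the exception. Of these 14 genes, HIST1H4I was the only 1 with a mean of at least 1 FPKM.

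The gap between the clones and the control was compared with the spread between the clones. The mean of the clones was above the control by more than their SD for 7 of the 10 genes, against 26% of all genes, and below it by more than the SD for 0, against 22.9%. With the filter on the control alone, which leaves out HIST2H2BE, it was above the control by more than the SD for 6 of 9 genes, against 24.9%. For HIST1H1C the mean of the clones was 40.6 ± 3.41 FPKM (SD, n = 2) beside 29.3 in the control. For HIST1H2BD it was 8.18 ± 0.106 FPKM (SD, n = 2) beside 4.94. For HIST1H2BK it was 82.3 ± 10.6 FPKM (SD, n = 2) beside 72.6, a gap smaller than the SD. The genes whose gap was within the SD were HIST1H2BK, HIST1H2BJ and HIST3H2A. The counting interval lay above 1 in both clones for 5 of the 10 genes, HIST1H1C, HIST1H2AC, HIST1H2BD, HIST2H2BE and HIST1H3H, against 18.1% of 11598 genes, and below 1 in both for 0, against 14.1%. A fold of at least 1.25 in FPKM + 1 in both clones was reached upward by 5 of the 10 genes, against 2.96%, a threshold chosen after the values were seen. HIST2H2BE is 1 of the 5 in both of these counts. Of the 10 genes, 6 were higher in clone 1 than in clone 2, against 57.8% of all genes.

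**Figure D3:**
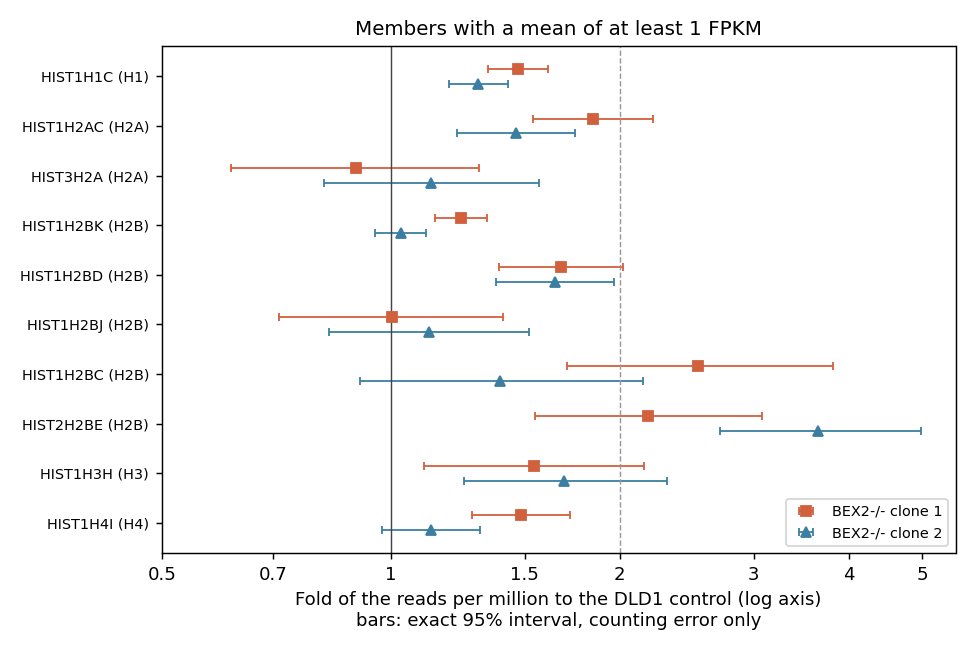
Fold of each clone to the DLD1 control (horizontal log axis) for the 10 histone genes past the filter, with squares for clone 1, triangles for clone 2 and bars for the exact 95% interval of counting error. The line at 1 is no difference and the dashed line is 2-fold. All points lie at or right of 1 except HIST3H2A in clone 1 at 0.901, and HIST2H2BE in clone 2 is farthest right at 3.65.

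By class, the summed level of H1 was 29.6 FPKM in the DLD1 control, 44.1 in clone 1 and 38.5 in clone 2, and at least 97.6% of it came from HIST1H1C. That of H2A was 5.61, 7.70 and 7.84 FPKM. That of H2B was 83.0, 106 and 90.0 FPKM, and HIST1H2BK held between 83.1% and 87.5% of it. That of H3 was 3.11, 6.30 and 3.84 FPKM, and that of H4 was 7.52, 10.4 and 8.40 FPKM. Every class sum was higher in both clones than in the control, with folds of 1.28 to 2.03 in clone 1 and 1.08 to 1.40 in clone 2. These sums rest on few genes and do not show a rise throughout each class. For the genes below the filter, the sum in clone 2 was under the control in H2B, at 1.60 against 2.01 FPKM. It was also under it in H3, at 1.83 against 1.92 FPKM, and above it in H1, H2A and H4. H3 had the lowest sum in every library.

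The 61 genes below the filter were then summed. They had 494 reads in the DLD1 control, 521 in clone 1 and 544 in clone 2, or 10.4, 14.6 and 11.4 per 1000000 reads of the library. Clone 1 was 1.41-fold higher than the control with an interval of 1.24 to 1.59, and clone 2 was 1.10-fold higher with an interval of 0.968 to 1.24. No such sum was taken over other genes below the filter, so whether these ratios are particular to histone genes was not tested. In clone 1 the H3 genes were 2.15-fold higher with an interval of 1.69 to 2.76 (109 and 176 reads, with 134 in clone 2), and the H1 genes 3.15-fold higher with an interval of 1.505 to 7.07 (11 and 26 reads, with 12 in clone 2). Of the H3 reads, HIST1H3E held 84, 127 and 116 and HIST1H3F held 2, 19 and 12. The other 12 low H3 genes had 23, 30 and 6 reads, a ratio of 1.74 in clone 1 with an interval of 0.977 to 3.14 and of 0.259 in clone 2 with an interval of 0.0864 to 0.655. Without HIST1H3E and HIST1H3F the low genes had 408, 375 and 416 reads, a ratio of 1.23 in clone 1 with an interval of 1.06 to 1.41. For the low genes of H2A, H2B and H4 the intervals include 1 in both clones.

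**Figure D4:**
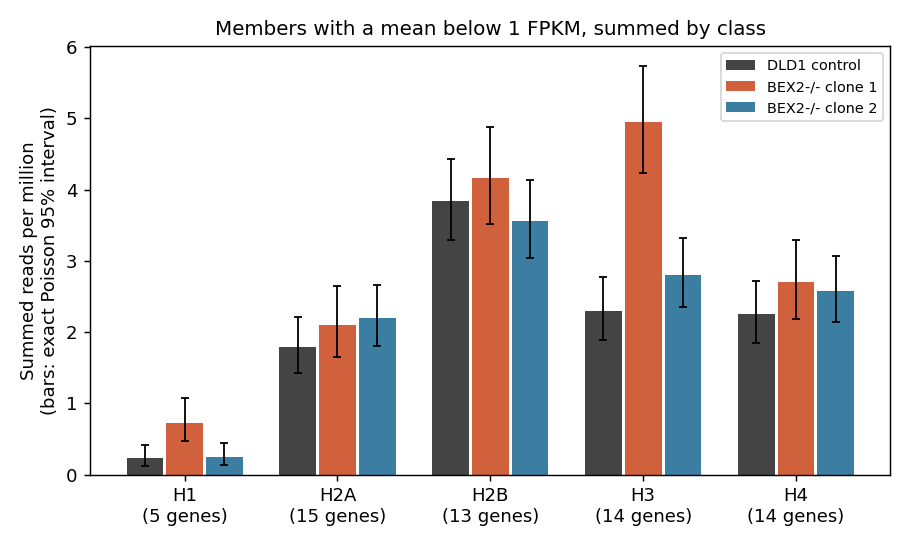
Summed reads per 1000000 reads of the library (vertical axis) of the 61 histone genes below the filter by class, in the DLD1 control, clone 1 and clone 2, with bars for the exact Poisson 95% interval. Clone 1 stands above the other libraries in H1, at 0.730 against 0.232 and 0.251, and in H3, at 4.94 against 2.30 and 2.81.

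Ratios were also taken with no pseudocount and no filter, with values under 3 reads set to 3 reads, for the 41 of the 71 genes with more than 3 reads in a library. A gene that passed only through the library where it is high had to differ, and 5 of the 41 had more than 3 reads in clone 1 alone, 4 in the control alone and 4 in clone 2 alone. The floor is also uneven, since against 3 reads or fewer in the other library 5 reads in clone 1 are 2-fold higher, where the control needs 9. The counts that follow are therefore a description, and no direction is read from them. In clone 1, 11 were at least 2-fold higher, against 8.8% of 23204 genes, and 0 were at least 2-fold lower, against 6.01%. The 11 were HIST1H1B, HIST1H1D, HIST1H2BC, HIST2H2BE, HIST2H2BF, HIST1H3E, HIST1H3F, HIST3H3, HIST1H3J, HIST1H4K and HIST1H4C. HIST1H3I and HIST1H4J, each with 8 reads in the control and 3 or fewer in clone 1, lay just short of 2-fold lower on this scale. In clone 2, HIST1H2AI, HIST2H2BE and HIST1H3F were at least 2-fold higher, against 8.42% of all genes, and HIST1H2BO, HIST2H2BF, HIST1H3I and HIST1H4J at least 2-fold lower, against 8.58%. HIST2H2BE and HIST1H3F were the 2 genes higher in both, against 2.19%, and 0 were lower in both, against 2.31%. Between the clones, 11 genes were at least 2-fold lower in clone 2, against 10.6%, and 1, HIST1H2AI, was higher, against 8.74%. Most of these genes had 10 reads or fewer in each library, and they were named after their values were seen.

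Some genes cannot be told from their copies. At least 50% of the 50-mers of 17 genes occur in another annotated gene, and 8 of the 17 were listed at 0 throughout. HIST2H3A and HIST2H3C, identical copies, were both at 0. HIST2H2AA3 was at 0 and its copy HIST2H2AA4 had 0, 2 and 0 reads. HIST2H4A had 1, 0 and 6 reads and its copy HIST2H4B had 2, 1 and 1. HIST1H4J had 8, 0 and 3 reads and HIST1H4K, which shares 100% of its 50-mers with it, had 4, 7 and 3, so the opposite values of these 2 genes in clone 1 are uncertain.

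Many H2A and H2B genes lie head to head, with a shared promoter region between them. There were 11 such pairs with starts at most 500 nt apart, and HIST1H2BO, the H2B gene of 1 of them, also lies 357 nt from the start of the H3 gene HIST1H3J. HIST1H2BK, at 72.6 to 89.8 FPKM, has its start 331 nt from that of HIST1H2AH, which was listed at 0 in all 3 libraries. HIST2H2BE was higher in both clones, whereas its partner HIST2H2AC, 323 nt away, had 6, 2 and 4 reads. HIST1H2BC and HIST1H2AC, 219 nt apart, were the 1 pair with both genes past the filter, and in both genes clone 1 was highest and the control lowest. HIST3H2A was at 1.57 to 1.97 FPKM and its partner HIST3H2BB at 0.0891 to 0.160 FPKM.

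The genes that make and process histone mRNA were compared with the same libraries. The list of histone transcription and 3′ end processing held 34 symbols, among them ARS2, ZCCHC6 and ZCCHC11, other names of SRRT, TUT7 and TUT4. The 31 genes it stands for were all found and passed the filter. None differed 2-fold in clone 1 or clone 2, where 2.02% and 2.06% of all genes did. The median log2 ratio of the 31 genes was 0.0075 in clone 1 and -0.021 in clone 2. SLBP, the stem-loop binding protein, was at 72.7, 70.6 and 59.9 FPKM in the DLD1 control, clone 1 and clone 2, and SRRT, a cap-complex partner, at 64.1, 57.9 and 51.3 FPKM. NPAT, the coactivator of histone genes, was at 2.08, 2.2001 and 1.99 FPKM.

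Most histone variant genes are expressed throughout the cell cycle from polyadenylated mRNA. H2AFX, which also gives a stem-loop mRNA, and H2BFS are in the list. Of its 21 genes 10 passed the filter, with medians of -0.11 and -0.22. Of these 10, none was higher in both clones, against 32.4% of all genes, and 8 were lower in both, against 27.7%. H2AFZ, which encodes H2A.Z, was at 170, 171 and 121 FPKM, and H2AFX, which encodes the DNA damage variant H2A.X, at 79.3, 66.1 and 47.5 FPKM. H1F0, the linker histone of differentiated cells, was at 42.3, 31.3 and 55.3 FPKM, lower in clone 1 and higher in clone 2 than in the control. Per length, H2AFZ was above HIST1H2BK, the highest clustered gene, in every library. Of 28 histone chaperone genes found 26 passed, with medians of -0.069 and -0.13. Of the 26, 5 were higher and 14 lower in both clones, against 32.4% and 27.7% of all genes. The 2 highest were NPM1, at 651, 584 and 680 FPKM, and SET, at 187, 177 and 164 FPKM.

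All 41 S phase genes passed the filter. Of these, 34 were lower and 1 was higher in both clones, against 27.7% and 32.4% of all genes. SLBP is counted in this list too. The median log2 ratio was -0.17 in clone 1 and -0.33 in clone 2. PCNA, the clamp of the DNA polymerases, was at 238, 215 and 169 FPKM, and TK1, thymidine kinase, at 132, 96.8 and 105 FPKM. All 10 genes of terminal differentiation and withdrawal from the cell cycle passed, with a median of 0.41 in each clone. Of these, 5 were higher in both clones, against 32.4% of all genes, and 0 were lower in both, against 27.7%. KRT20, a keratin of differentiated intestinal cells, was at 18.9, 117 and 0.931 FPKM, and CDKN1B, a cyclin-dependent kinase inhibitor, at 19.6, 21.1 and 15.3 FPKM. The inhibitors CDKN1A, at 4.24, 6.68 and 12.3 FPKM, and CDKN2B, at 0.379, 0.879 and 5.71 FPKM, were at least 2-fold higher in clone 2. CDKN2B is 1 of the 5 genes higher in both clones. It passed the filter only through the clones, so their mean had to be higher, and nothing is read from its place in these counts. The part of cell cycle or of differentiation in the histone values was not tested.

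Other RNAs that lack a poly(A) tail were also looked at in each library. Their reads were few and uneven, so they are not a measure of how much such RNA entered it. Of 21 small and structural RNAs 20 were found, 11 were listed at 0 throughout and 1 passed the filter, SCARNA13 at 1.76 FPKM in the DLD1 control, 0.715 in clone 1 and 0.457 in clone 2. SNORD3A, the U3 RNA, was at 0.633, 1.09 and 0.180 FPKM. Their summed level was 3.74 FPKM in the control, 4.93 in clone 1 and 1.20 in clone 2. The sums rest on 58, 55 and 19 reads, of which SCARNA13 held 23, 7 and 6. The ratio to the control was 1.26 in clone 1, with an interval of 0.858 to 1.86, and 0.326 in clone 2, with an interval of 0.183 to 0.555. The genes did not move together, as SCARNA13 was highest in the control and RNU4-1 had 0, 5 and 2 reads. The part of poly(A) selection in the histone values was not tested.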

How the data were processed

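RNA-Seq libraries of 1 DLD1 control and 2 BEX2-/- DLD1 clones were analysed, and samples were grouped by their labels. The authors made the libraries with an Illumina TruSeq RNA kit, which does not mark strand, and deposited 1 table of FPKM values per gene. The submitters' processing notes name Trim Galore 0.3.7, STAR 2.5, Cufflinks 2.2.1, DESeq 1.22.1 and hg19. The annotation and the treatment of reads that match several places are not given in the sources used here. Symbols, exon lengths and transcripts came from GENCODE release 29 on GRCh38, which matched 56996 of 60504 identifiers, and promoters from RefSeq on GRCh38.p14.

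Ratios were taken as log2(FPKM + 1), which understates the change of low genes, for the 11675 genes where the control value and the clone mean averaged 1 FPKM or more. A difference counted from 2-fold. No p-value was computed, because the control has no replicate. Reads were recovered as FPKM times exon length times the depth at which low values became whole within 0.02. Whole reads were found in 98.7% to 98.8% of the low values where a gene has 1 transcript, and in 88.1% to 89.0% elsewhere. Intervals of ratios of reads are exact (Clopper-Pearson) 95% intervals. Reads are not independent molecules, and the intervals cover counting error only.

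The named genes were the 3 with the highest mean in each class and every gene past the filter that differed 2-fold between libraries. Of the other lists they were the 2 highest genes and those that differed 2-fold in a clone. Any other gene was named after its values were seen. The genes and lists were chosen with earlier results of these data known. The method was also run on simulated data, and the outcome of that run is not given here. It is therefore not taken as a check of the method for genes of low level or for small folds. The alternatives were another pseudocount, scaling, filter and fold, a scale floored at 3 reads, omission of genes that share sequence, and omission of each clone. No protein sequences were used. Scripts ran in Python 3.11.15, with scipy 1.17.1, pandas 2.3.3, matplotlib 3.10.9 and numpy 2.4.6.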

Additional observations from a re-analysis of the deposited data

How the results depend on the processing

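The counts of histone genes that differed 2-fold, 0 in each comparison, depended on how low values were treated. With a pseudocount of 0.1 FPKM, or with scaling to TPM, 1 gene was called in clone 1 and 1 in clone 2, and TPM scaling moved the median of clone 2 to 0.45. Without a filter on low values 1 gene was called in clone 1, and the medians of the 48 genes were 0.11 in clone 1 and 0.042 in clone 2. With no pseudocount, no filter and a floor of 3 reads, 11 genes were called in clone 1, 7 in clone 2, 2 the same way in both and 12 between the clones, and the medians over 41 genes were 0.044 in clone 2 and -0.26 from clone 1 to clone 2. A 1.5-fold threshold gave 3 genes in clone 1, 2 in clone 2 and 1 the same way in both. Of the alternatives chosen after seeing the data, no pseudocount with the filter kept gave 2 in clone 1, 1 in clone 2 and 1 in both, a 1.25-fold threshold gave 5 in both, and a filter of 1 FPKM on the control alone left 9 genes and 0 calls, with medians of 0.49 and 0.26. No alternative reversed a median. Omission of 1 clone left only the count of the other clone, 0 as already given, so it was no further check. Scaling by the median ratio, a mean of at least 5 FPKM and omission of genes that share at least 50% of their 50-mers also left every count at 0.

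No paired analysis was possible because the control has 1 library. At these depths a gene of 400 nt below about 0.2 FPKM rests on about 3 reads or fewer. Scaling by the median ratio gave medians of 0.46 in clone 1 and 0.33 in clone 2.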
